A study of Homo sapiens with 4 samples.

Results

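The serine/arginine-rich (SR) splicing factor genes SRSF1, SRSF2, SRSF3, SRSF6 and SRSF7 were followed through their poly(A) regions, the stretches of genome in which reads marked the cleaved and polyadenylated ends of transcripts. The 5 genes were chosen by name, and a region was taken as theirs when it lay on the gene's strand inside a fixed hg19 window around it. The windows ran from 56077 to 56086 kb on the minus strand of chromosome 17 for SRSF1, from 74729 to 74735 kb on the same strand for SRSF2, from 36561 to 36574 kb on the plus strand of chromosome 6 for SRSF3, from 42085 to 42094 kb on the plus strand of chromosome 20 for SRSF6 and from 38969 to 38980 kb on the minus strand of chromosome 2 for SRSF7. They held 29 of the 31081 regions in the table and 35192 reads, which is 0.206% of all reads.

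All 4 libraries came from DICER(ex5) cells, a line derived from the human colon cancer cells HCT116 and labelled as a hypomorph for Dicer, the ribonuclease that releases mature microRNAs from their precursors. No parental or other control group was analysed here, so the comparisons are between regions, between genes and between libraries, and none bears on the loss of Dicer activity. The libraries are described as biological quadruplicates, but the protocol speaks of RNA from 4 plates of a cell type without tying plates to libraries, so the SD between libraries may be partly technical. They held 5211279, 2163977, 5713530 and 3984278 reads in libraries 1 to 4.

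SR proteins bind exonic enhancer sequences through RNA recognition motifs and recruit the splicing machinery through a tail rich in arginine and serine. Their own genes contain ultraconserved stretches and alternatively spliced "poison" exons, whose inclusion sends the transcript to nonsense-mediated decay and so limits the amount of the protein. In mouse cells SRSF3 and SRSF7 are also known to bind near poly(A) sites and to alter which of them is used. SR genes are broadly expressed.

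The reverse transcription primer decides what is read. Per the labels' protocol its 3' end consists of 20 T followed by a short degenerate anchor. Such a primer can also anneal to A-rich stretches inside a transcript. Neither the sequence nor an annotation of hg19 was used here, so such stretches were not marked and no region was placed in an exon, an intron or a 3' untranslated region. Regions are therefore described by position and by order along the gene. Positions are printed as deposited, with no statement of whether they are 1-based. Of the 29 regions, none was as narrow as 5 bases, their widths ran from 9 to 91 bases, and their median width was 29 bases, against 27 bases over the whole table.

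Each read marks 1 transcript end, so levels are given as CPM, reads of all regions of a gene scaled to the library total, without division by transcript length. All 5 genes were well above the median locus of the table, 11.7 CPM, where a locus is a run of regions on a strand with gaps of at most 5 kb and each gene's window counts as 1 locus. By mean CPM, SRSF2 ranked 215 of 17963 loci, SRSF3 ranked 294, SRSF6 ranked 349, SRSF7 ranked 415 and SRSF1 ranked 1434.

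SRSF2, also known as SC35, had the highest mean level, with 540.6, 476.0, 696.8 and 674.4 CPM in libraries 1 to 4 (597 ± 106, SD, n = 4). Libraries 3 and 4 were both above libraries 1 and 2, and the highest library was 1.46 times the lowest. SRSF3, the smallest member of the family and also known as SRp20, had 546.1, 535.6, 442.5 and 461.3 CPM (496 ± 52.1, SD, n = 4), so that here libraries 1 and 2 were the higher ones. SRSF2 was above SRSF3 in 2 of 4 libraries, with a difference of 101 ± 156 CPM (SD, n = 4), so their order was not larger than the spread between libraries.

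SRSF6, also known as SRp55, had 470.7, 477.4, 382.8 and 406.6 CPM (434 ± 46.9, SD, n = 4). It was below SRSF3 in each of the 4 libraries, by 62.0 ± 9.18 CPM (SD, n = 4). SRSF7, also known as 9G8 and set apart in the family by a zinc knuckle, had 408.5, 371.1, 358.8 and 376.7 CPM (379 ± 21.2, SD, n = 4), the smallest relative spread of the 5 genes, with the highest library at 1.14 times the lowest. SRSF6 was above SRSF7 in 4 of 4 libraries, by 55.6 ± 37.7 CPM (SD, n = 4), although their ranges over libraries overlapped.

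SRSF1, also known as SF2 or ASF and among the first SR proteins to be purified as splicing factors, was the lowest, with 172.5, 168.7, 125.5 and 137.8 CPM (151 ± 23.1, SD, n = 4). Its highest library lay below the lowest library of each of the other 4 genes, and it was below SRSF7 by 228 ± 17.0 CPM (SD, n = 4). No test was made of these orders, since with 4 libraries the smallest two-sided p of an exact paired permutation test is 0.125.

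**Figure D1:**
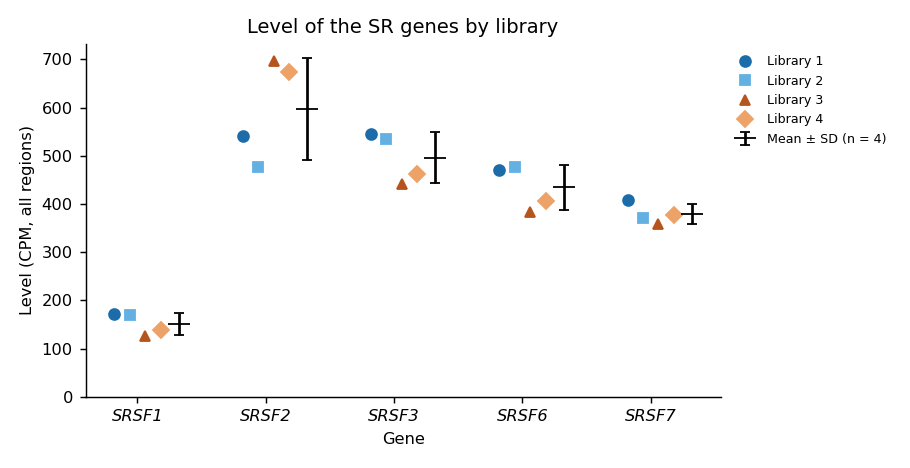
Level of each gene in CPM (all regions of the window) for libraries 1 to 4, with the mean and SD over the 4 libraries in black. SRSF2 is highest in libraries 3 and 4, at 696.8 and 674.4 CPM, while SRSF1 stays at 172.5 CPM or less in every library.

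Pseudogenes could blur these levels: the RefSeq gene table (GRCh38.p14) lists 9 pseudogenes named after 4 of the genes, 5 of them after SRSF3 and none after SRSF7. The treatment of reads that map to several places is not stated, and the part of such reads in the counts was not tested. The same table places MIR636, a microRNA gene, within the bounds of SRSF2; the data hold no level of the mature microRNA.

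A region was counted as in use, or passing, when it held 5% or more of its gene's reads and 10 or more reads over all libraries. By this rule 17 of the 29 regions passed and 12 did not, and each of the 5 genes had several passing regions. SRSF1 had 6 passing regions, SRSF3 had 4, SRSF6 had 3, and SRSF2 and SRSF7 had 2 each. Over the 3735 loci with at least 1000 reads, a depth that all 5 genes exceeded, 46.7% had 2 or more passing regions, 19.9% had 3 or more, 8.27% had 4 or more and 3.11% had 5 or more. The passing regions held 96.3% of the reads of SRSF1, 99.0% of SRSF2, 98.3% of SRSF3, 96.1% of SRSF6 and 100% of SRSF7.

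**Figure D2:**
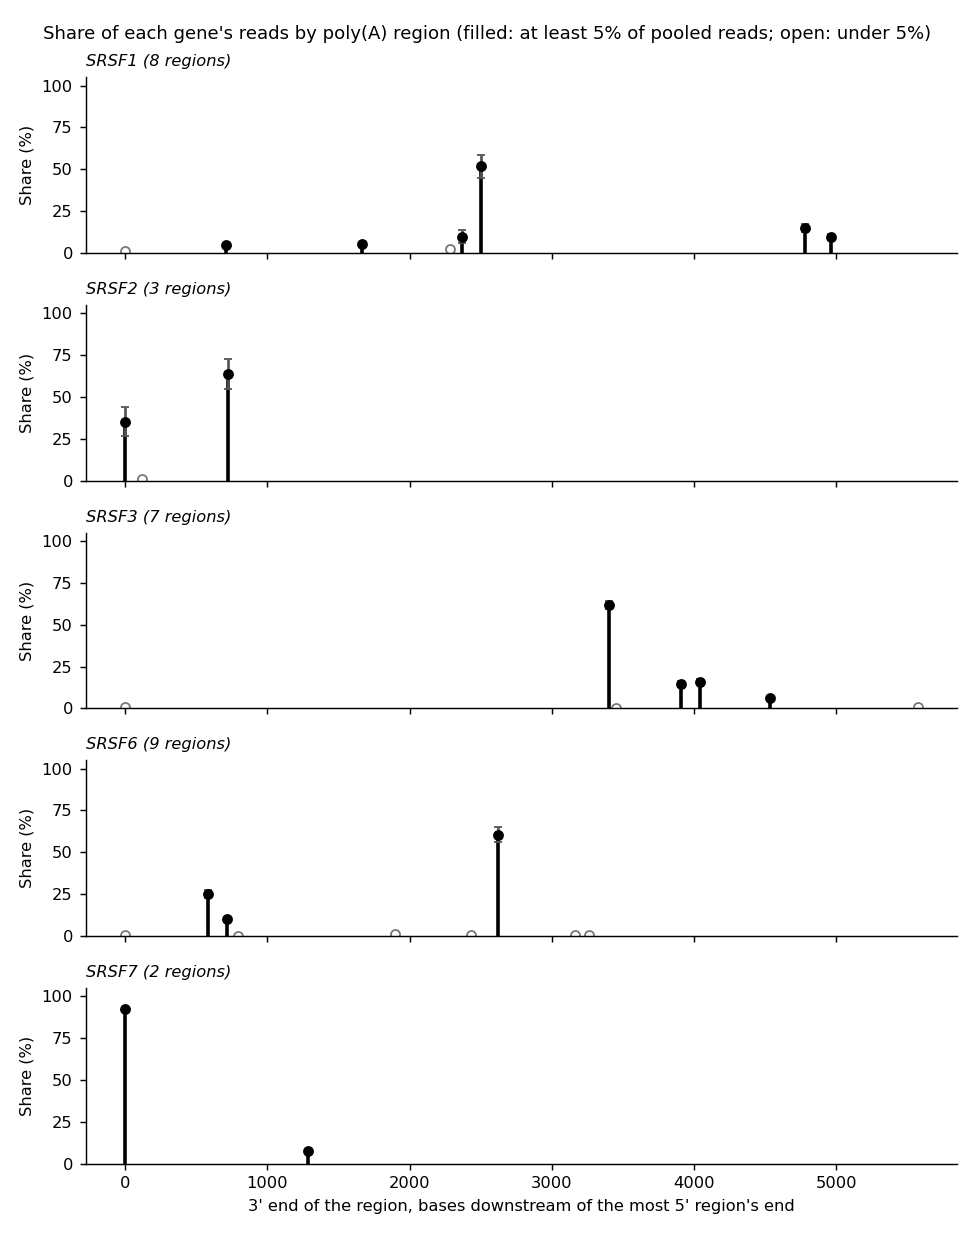
Share of a gene's reads (%, mean and SD over 4 libraries) at each poly(A) region, placed by the distance in bases of its 3' end from that of the gene's most 5' region. Filled points held at least 5% of the gene's reads pooled over libraries; the strongest region is the most 3' filled one in SRSF2 and SRSF6, the most 5' filled one in SRSF3 and SRSF7, and an inner one in SRSF1.

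The genes fell on both sides of the range of distal usage. The distal share, the part of the passing reads found in the most 3' passing region, was 64.6% ± 8.83 in SRSF2 and 63.1% ± 3.75 in SRSF6, but 9.85% ± 1.78 in SRSF1, 7.60% ± 1.30 in SRSF7 and 6.13% ± 0.733 in SRSF3 (SD, n = 4). Over the 5070 loci that had several passing regions and 100 reads or more, the median was 43.2%. Of these loci, 2.80% had a lower distal share than SRSF3 and 6.33% a lower one than SRSF7, while 66.7% had a lower one than SRSF2. The share minimum for passing regions keeps distal shares from falling far below it, and SRSF3 and SRSF7 lay close to that minimum. The loci were also not matched by number of passing regions, and with more regions the average share per region is lower. This bears on the low rank of SRSF3, with 4 passing regions. It does not bear in that way on SRSF7, which had 2, the fewest that these loci could have. Whether usage in SRSF3 or SRSF7 was unusually proximal was not tested.

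In SRSF2 the 2 passing regions lay on the minus strand of chromosome 17, with 3' ends 724 bases apart. The distal one, from 74730187 to 74730216, had 1625, 566, 2885 and 1898 reads in libraries 1 to 4, which is 311.8, 261.6, 504.9 and 476.4 CPM. The proximal one, from 74730911 to 74730946, had 1156, 452, 1060 and 772 reads, or 221.8, 208.9, 185.5 and 193.8 CPM. The proximal region was somewhat lower in libraries 3 and 4, with its highest library at 1.20 times its lowest. The distal region varied more: it was higher in libraries 3 and 4 and reached 1.93 times its lowest library. Over the 3453 regions with at least 1000 reads the median of this ratio was 1.29, and 89.4% of them had a lower ratio than the distal SRSF2 region.

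The distal share of SRSF2 was accordingly 58.4% (95% Wilson interval 56.6% to 60.3%) in library 1 and 55.6% (52.5% to 58.6%) in library 2, but 73.1% (71.7% to 74.5%) in library 3 and 71.1% (69.3% to 72.8%) in library 4. The intervals cover counting error only, and those of libraries 3 and 4 did not overlap those of libraries 1 and 2. A weak region between them, from 74730789 to 74730827, held 0.995% ± 0.288 of the gene's reads (SD, n = 4).

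The distal end of SRSF2 faces another transcript end. On the plus strand, a region from 74729940 to 74729972 ended 215 bases beyond the distal SRSF2 end. It was the only opposite-strand region found within 2 kb of the last region of any of the 5 genes. For this search the last region was taken whether or not it passed. In SRSF3 and SRSF6 it lay downstream of the most 3' passing region. The plus-strand region near SRSF2 had 96.1, 101.7, 85.1 and 92.6 CPM in libraries 1 to 4, so it was not higher in the libraries in which the distal SRSF2 region was. RefSeq (GRCh38.p14) lists METTL23 as the neighbour of SRSF2 on that side, but the deposited table holds no gene names and the region was not assigned.

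In SRSF6 the strongest region was again the most 3' of the passing ones. It spanned 42092225 to 42092252 (chromosome 20, plus strand) and had 262.5, 278.2, 245.4 and 261.5 CPM in libraries 1 to 4, with the highest library at 1.13 times the lowest. A pair of passing regions ended 2041 and 1904 bases upstream of it. The first, from 42090185 to 42090211, had 131.8, 122.5, 94.2 and 90.9 CPM, and the other, from 42090306 to 42090348, had 52.0, 55.0, 32.4 and 41.2 CPM. In SRSF6 the upstream regions varied more than the strongest one. Both were lower in libraries 3 and 4 than in libraries 1 and 2. The proximal region of SRSF2 was also lower in libraries 3 and 4, but in that gene the distal region varied more. The distal share of SRSF6 was 58.8% (56.8% to 60.8%) in library 1, 61.1% (58.0% to 64.0%) in library 2, 66.0% (63.9% to 68.0%) in library 3 and 66.5% (64.1% to 68.7%) in library 4.

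**Figure D3:**
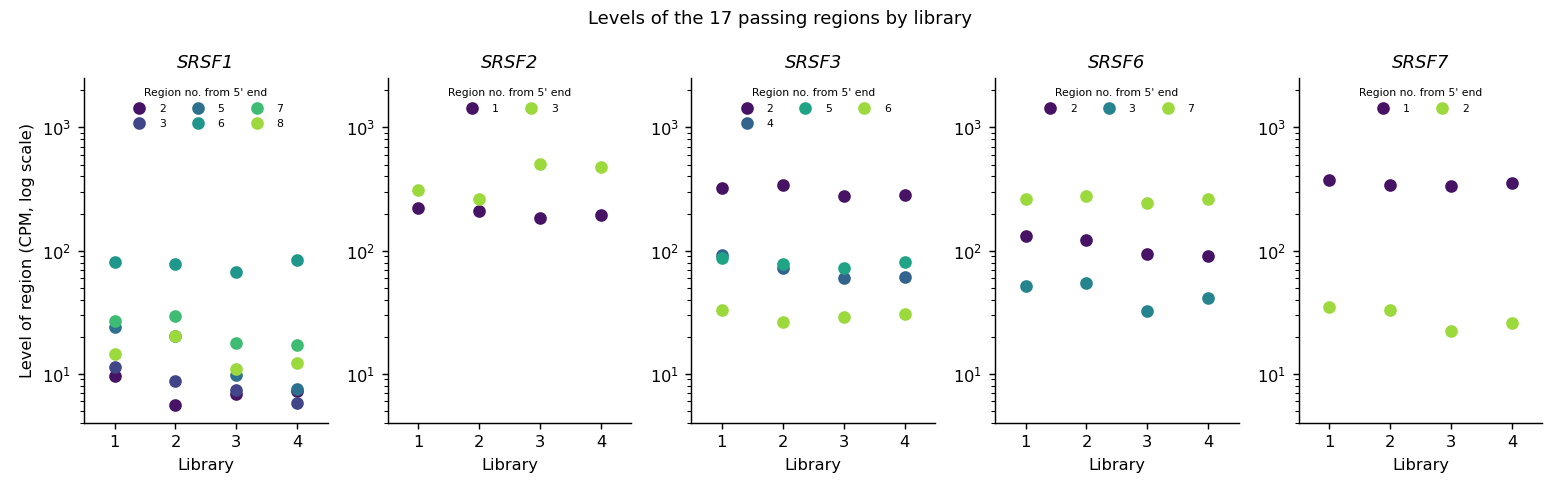
Levels of the 17 passing regions (CPM, log scale) in libraries 1 to 4, 1 panel per gene, with regions numbered from the 5' end of the gene over all its regions. In SRSF2 the most 3' region is higher in libraries 3 and 4, at 504.9 and 476.4 CPM. The upstream passing regions of SRSF2 and SRSF6 are lower there.

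In SRSF3, by contrast, most reads fell in the most upstream of the 4 passing regions. That region spanned 36570030 to 36570082 (chromosome 6, plus strand) and had 321.0, 342.0, 277.4 and 284.6 CPM in libraries 1 to 4, or 61.8% ± 2.17 of all reads of the gene (SD, n = 4). The next passing regions ended 502, 639 and 1131 bases further downstream. They held 14.3% ± 1.78, 16.0% ± 1.32 and 6.02% ± 0.781 of the gene's reads (SD, n = 4). The regions with 14.3% and 16.0% could not be ranked, since the one at 36570678 was above the one at 36570556 in libraries 2, 3 and 4 and below it in library 1, with 454 against 483 reads. A last, weak region 2169 bases downstream of the strongest, from 36572235 to 36572251, had 14, 4, 22 and 14 reads.

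The distal share of SRSF3 varied little between libraries: it was 6.15%, 5.08%, 6.63% and 6.64% in libraries 1 to 4. Its SD of 0.733 percentage points compares with a median of 2.82 points over the 1745 loci that had several passing regions and 1000 reads or more, of which 4.24% had a lower SD. A share near 0 leaves less room for spread than one near 50%, so this SD is not a measure of tighter usage. The share of the strongest region was 60.2%, 66.0%, 63.3% and 62.3%, with library 2 highest.

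SRSF7 used the simplest arrangement, with 2 regions on the minus strand of chromosome 2 and no others. The proximal one, from 38972019 to 38972109, was the widest of the 29 regions at 91 bases and had 373.6, 338.3, 336.6 and 351.1 CPM in libraries 1 to 4. The distal one, from 38970734 to 38970769, ended 1285 bases further on and had 34.9, 32.8, 22.2 and 25.6 CPM. Its share was 8.55% (7.43% to 9.81%), 8.84% (7.07% to 11.0%), 6.20% (5.23% to 7.32%) and 6.80% (5.63% to 8.18%). The intervals of libraries 1 and 3 did not overlap, while that of library 4 overlapped those of all the others. Libraries 3 and 4 were below libraries 1 and 2.

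SRSF1 divided its reads most widely, with 6 passing regions whose 3' ends spanned 4256 bases on the minus strand of chromosome 17. The strongest, from 56080710 to 56080750, had 418, 169, 385 and 332 reads in libraries 1 to 4, or 80.2, 78.1, 67.4 and 83.3 CPM, and held 51.7% ± 6.76 of the gene's reads (SD, n = 4). A pair of distal regions ended 2279 and 2460 bases downstream of it, from 56078431 to 56078474 and from 56078250 to 56078289. They had 27.1, 29.6, 17.9 and 17.1 CPM and 14.4, 20.3, 10.9 and 12.3 CPM. Even added together, the pair stayed below the strongest region in each of the 4 libraries.

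The remaining passing regions of SRSF1 lay upstream of the strongest one. The nearest, from 56080848 to 56080890, ended 138 bases before it and had 23.8, 20.3, 9.80 and 7.53 CPM, the largest relative spread of any passing region, with the highest library at 3.16 times the lowest. Libraries 1 and 2 were the higher ones, and the share of the gene's reads was 13.8%, 12.1%, 7.81% and 5.46%. The regions from 56081546 and from 56082506 ended 836 and 1796 bases upstream and held 5.45% ± 1.01 and 4.89% ± 1.08 (SD, n = 4). Both were close to the 5% minimum, with 143 and 130 reads in all, and without library 1 SRSF1 had 5 passing regions in place of 6.

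Usage was then compared between libraries by a two-sided Fisher's exact test on each locus, the most 3' passing region against the other passing regions, with reads thinned to the smallest library and Benjamini-Hochberg adjustment over the 5070 loci. This compares libraries and not conditions. Of the 5 genes, 2 were called for library 3 against 1, 2 for 4 against 1, 1 for 3 against 2 and 2 for 4 against 2, and 0 in the other pairs. Libraries 3 and 4 stood apart from libraries 1 and 2 over the whole table as well: the test called 9.84% of loci for library 3 against 1, 8.92% for 4 against 1, 15.7% for 3 against 2 and 14.3% for 4 against 2, but 0.335% for 2 against 1 and 0.0789% for 4 against 3. Among the 1745 loci of 1000 reads or more these values were 16.8%, 16.1%, 26.9% and 25.8%, and 0.917% and 0.229%. No batch is recorded that could be set beside this division, and its source was not tested. With 5 genes, the counts are too few to be set apart from the shares called over all loci.

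SRSF2 was called in each of these 4 pairs. On thinned counts its distal share was 15.4 percentage points higher in library 3 than in library 1 (Fisher's exact test, adjusted p = 1.04e-14) and 13.7 points higher in library 4 than in library 1 (exact test, adjusted p = 3.52e-11). It was 18.3 points higher in library 3 than in library 2 (exact test, adjusted p = 2.72e-19) and 16.6 points higher in library 4 than in library 2 (exact test, adjusted p = 1.58e-15). Between libraries 2 and 1 the difference was -2.95 points (exact test, adjusted p = 0.86), and between libraries 4 and 3 it was -1.69 points (exact test, adjusted p = 1). The SD of its distal share over the 4 libraries exceeded that of 89.7% of the loci with at least 1000 reads.

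SRSF6 was called in 3 of the 6 pairs. Its distal share was 8.31 points higher in library 3 than in library 1 (exact test, adjusted p = 0.0061), 9.78 points higher in library 4 than in library 1 (exact test, adjusted p = 0.00048) and 6.96 points higher in library 4 than in library 2 (exact test, adjusted p = 0.017). The last of these was not called under another random thinning of the reads, where the difference was 4.84 points (exact test, adjusted p = 0.15). Library 3 against library 2 gave 5.49 points (exact test, adjusted p = 0.094), and it was called on counts that were not thinned, at 4.92 points (exact test, adjusted p = 0.038).

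SRSF1, SRSF3 and SRSF7 were called in none of the 6 pairs; their lowest adjusted p values by the exact test were 0.35, 0.22 and 0.41. A miss of the threshold does not show that usage was equal. Without thinning, SRSF7 was called between libraries 3 and 1, with a distal share 2.35 points lower in library 3 (exact test, adjusted p = 0.019).

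**Figure D4:**
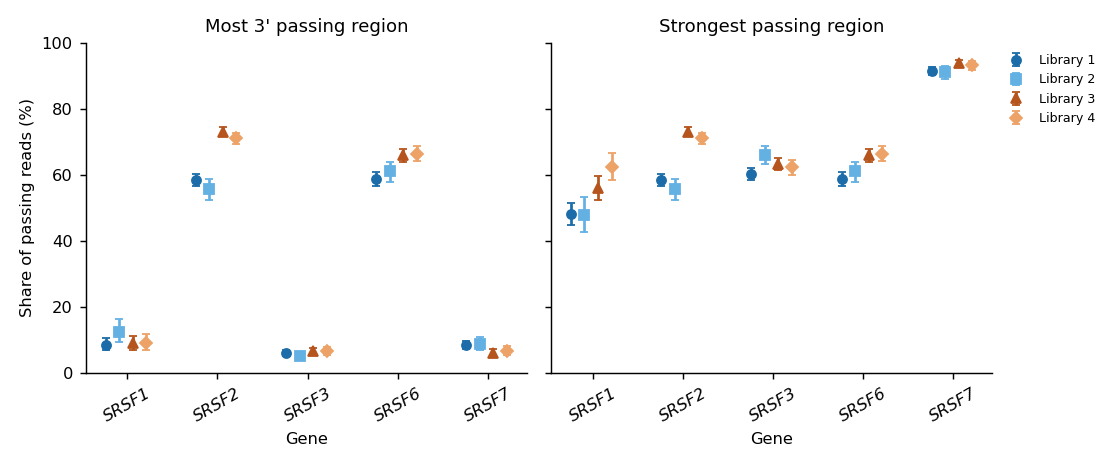
Share of the passing reads (%) in the most 3' passing region (left) and in the strongest passing region (right) for each gene, by library, with 95% Wilson intervals that cover counting error only. In SRSF2 libraries 3 and 4 lie at 73.1% and 71.1%, above libraries 1 and 2 at 58.4% and 55.6%; the 2 panels show the same region for SRSF2 and SRSF6.

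In SRSF1 the most 3' region is a minor one, so the strongest region was compared in the same way, a comparison chosen after seeing the data. Its share of the passing reads was 48.2% (44.9% to 51.5%), 48.0% (42.8% to 53.2%), 56.1% (52.4% to 59.8%) and 62.5% (58.3% to 66.5%) in libraries 1 to 4. On thinned counts it was 13.0 points higher in library 4 than in library 1 (exact test, adjusted p = 0.017; 9.70% of all loci called) and 11.4 points higher in library 4 than in library 2 (exact test, adjusted p = 0.034; 15.7% called). Against library 3 the differences from libraries 1 and 2 were 11.3 and 9.70 points (exact test, adjusted p = 0.054 and 0.095; 11.4% and 17.8% called). For library 2 against 1 and 4 against 3 SRSF1 was not called, and 0.375% and 0.0592% of all loci were. All loci here are the 5070 tested. The shares among those with at least 1000 reads, a depth that SRSF1 exceeded, were not worked out for the strongest region. For the most 3' region the shares called were higher at that depth. Without thinning the difference of library 3 minus library 1 was 7.91 points and was called (exact test, adjusted p = 0.012). The strongest region of SRSF3 was called in none of the 6 pairs, but under another thinning the difference of library 4 minus library 2 was -6.22 points (exact test, adjusted p = 0.027).

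The 12 regions below the 5% minimum included the only ones with no reads in a library. Some were low and similar in the 4 libraries: the SRSF6 region from 42091509 to 42091530, for example, had 32, 14, 28 and 25 reads, or 6.14, 6.47, 4.90 and 6.27 CPM. Others were lower in libraries 3 and 4 but rest on few reads, such as the SRSF3 region at 36570107 with 14, 3, 1 and 2 reads and the SRSF6 region at 42090415 with 15, 5, 4 and 0. A better read pair differed most. The SRSF3 region from 36566654 to 36566678 ended 3404 bases upstream of the strongest region of that gene and had 37, 31, 2 and 1 reads in libraries 1 to 4, which is 7.10, 14.3, 0.350 and 0.251 CPM. Its share of the gene's reads was 1.30% (0.945% to 1.79%) in library 1 and 2.67% (1.89% to 3.77%) in library 2, but 0.0791% (0.0217% to 0.288%) in library 3 and 0.0544% (0.0096% to 0.308%) in library 4.

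The SRSF6 region from 42092036 to 42092060 ended 192 bases upstream of the strongest region of its gene and had 42 and 17 reads in libraries 1 and 2, or 8.06 and 7.86 CPM, and 0 in libraries 3 and 4. A count of 0 allows up to 0.137% and 0.185% of the gene's reads there (3 counts), against shares of 1.71% and 1.65% in libraries 1 and 2. Of the 23 SR regions with at least 50 reads, this pair, chosen after its values were seen, had the lower of libraries 1 and 2 over 10 times the higher of libraries 3 and 4. The same held for 825 (3.73%) of the 22134 regions of that depth in the whole table, against 61 the other way round. With the regions below the minimum left out, the level of each gene moved by less than 1 SD.

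**Figure D5:**
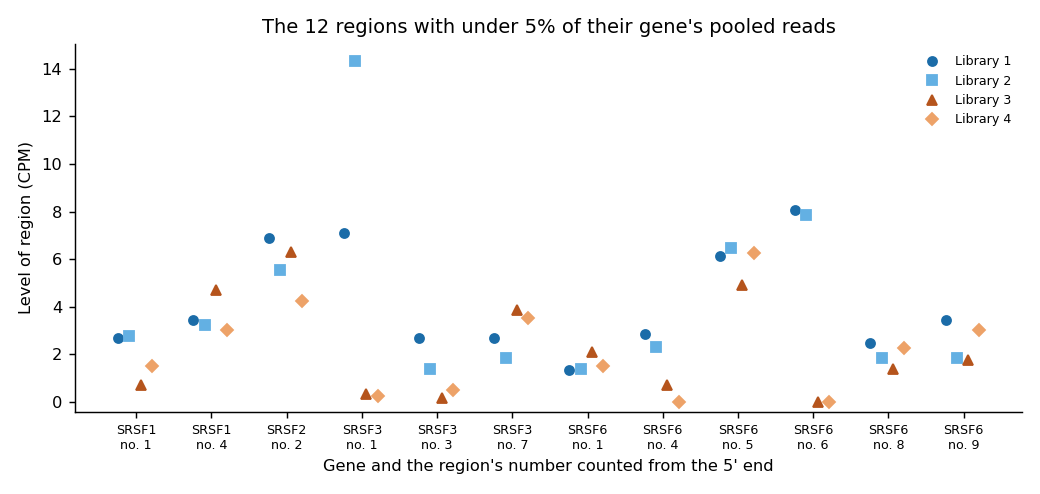
Level (CPM) of the 12 regions with under 5% of their gene's reads, by library, each named by its gene and its number from the 5' end. SRSF3 region 1 has 7.10 and 14.3 CPM and SRSF6 region 6 has 8.06 and 7.86 CPM in libraries 1 and 2, while both lie at 0.350 CPM or less in libraries 3 and 4.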

How the data were processed

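Poly(A) site sequencing was done on 4 libraries of 1 group. Per the labels' protocols, polyadenylated RNA was taken up on oligo(dT) beads, fragmented with alkali, sized on a gel to 50 to 100 nt and copied from an anchored oligo(dT) primer. The authors deposited raw read counts per poly(A) region and library. Bowtie2 2.2.5 and the build hg19 are listed, per the submitters' processing notes. The making and filtering of regions and any removal of PCR duplicates are not given in the sources used here, so intervals and limits cover counting error only.

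CPM, shares, 95% Wilson intervals (statsmodels 0.14.6) and Fisher's exact tests (scipy 1.17.1, threshold 0.05) were computed from the counts. Member windows were kept as loci, and all other regions were joined within 5 kb. Where such a locus holds ends of neighbouring genes, its distal share and its calls also depend on the levels of those genes. Tests ran over all loci with 2 or more passing regions and at least 100 reads, on counts thinned to the smallest library with a fixed seed, after a check on simulated data. The test takes each read as an independent molecule, so any spread beyond sampling raises the number of calls. All regions of the 5 genes were described. The members, lists and comparisons were chosen with earlier results of these data known. Other SR genes and SR protein kinases were planned but not analysed here, since placing them needs an hg19 annotation.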

Additional observations from a re-analysis of the deposited data

Results flagged for a closer look

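Gene levels, distal and strongest shares and region levels, 42 values in all, were searched for a library with a wide gap to the rest, and 1 value had such a gap. The distal share of SRSF1 was 12.5% in library 2, the shallowest library, with 352 passing reads, while the other libraries lay between 8.65% and 9.23%. Its Wilson interval, 9.44% to 16.4%, overlapped those of all the others. Chance sets about 1 in 20 such groups apart.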

How the results depend on the processing

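Gene levels moved by less than 1 SD with passing regions only and with median-of-ratios scaling. They also did so with each library left out, but leaving out 1 of 4 libraries cannot move a mean by 1 SD. That setting is therefore no check of the levels. The numbers of passing regions and the distal shares held (counts within 1.5 times, shares within 1 SD) with ends within 100 bases merged and with each library left out. For the shares, leaving out a library again cannot reach 1 SD while the passing regions stay the same. Asking for at least 100 reads per region, or leaving out regions of 5 bases or fewer, removed no passing region. The weakest passing region had 130 reads and the narrowest of the 29 regions had 9 bases, so these 2 settings could change nothing. The share minimum mattered. With none, SRSF3 had 7 passing regions and SRSF6 had 9, and their distal shares were 0.617% and 0.580%, since a weak downstream region became the last one. With a 10% minimum, SRSF1 had 3 passing regions and a distal share of 19.6%, SRSF3 had a distal share of 17.4%, and SRSF7 had 1 region and no distal share.

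Without thinning, 35 loci were called between libraries 2 and 1, 1185 between 3 and 1, 915 between 4 and 1 and 12 between 4 and 3, against 17, 499, 452 and 4. With the 10% minimum, 2 were called between libraries 4 and 3. For the strongest region the counts without thinning were 40, 1295, 1002 and 14, against 19, 577, 492 and 3, and another seed gave 31 between libraries 2 and 1 and 1 between 4 and 3. The counts without thinning rest on more reads per test, and another seed changes only which reads are drawn. Differences that changed sign were all far from the threshold (exact test, adjusted p from 0.75 to 1). Without thinning they were 0.29 points for the distal share of SRSF7 (library 2 minus 1), 0.58 and 0.19 for SRSF1 (4 minus 1, 4 minus 3), 0.0127 for SRSF3 (4 minus 3), and -0.20 for the strongest share of SRSF1 and -0.29 for that of SRSF7 (2 minus 1). With another seed they were 1.93 and 1.90 for SRSF1 and 1.14 for SRSF3 in the same pairs, and -1.44 for the strongest share of SRSF3 (4 minus 1). With the 10% minimum SRSF3 gave 0.77 points (4 minus 3). Each SRSF2 call between a library of 1 and 2 and a library of 3 and 4 was kept under all of these settings. No analysis paired across conditions was possible because the series has a single group. Library 2, with the fewest reads, sets the depth of the thinned tests.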
